A study of Mus musculus with 4 samples.

Results

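Interferon response genes were described in stomach RNA from male mice of 2 strains. Probes were taken by gene symbol: the receptor genes Ifnar and Ifngr, the numbered Irf and Stat genes, genes whose symbols begin with Ifi, Oas or Gbp, and a set of named kinases, sensors, effectors and regulators such as Jak1, Eif2ak2, Isg15 and Socs1. Of 33012 probes, 68 with a single symbol matched, and the 55 that had a value on at least 2 of the 4 arrays were kept. These 55 probes stand for 54 of the 13840 genes that had a probe of their own on the array, and 44 of the probes had a value on every array and were compared. The rule itself used no measured value other than the number of arrays with a value, but it was set with earlier results of these data known.

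The wild-type strain was the inbred mouse C57BL/6J. The mice set against it were homozygous congenics named B6.CAST-17, a strain that by its name carries chromosome 17 material of CAST origin on the B6 background. The labels state neither the extent of that segment nor the age of the mice. Each strain was represented by 2 RNA pools of 3 animals, 1 pool per array, and all mice ate chow and were deprived of food for 4 h before the stomach was removed. The study's title concerns Glp1r expression and gastric emptying, so the comparison asks which stomach transcripts differ between strains that differ at chromosome 17. Every difference is a log2 value, congenic minus wild type, given ± SE from n = 2 pools per strain except for the members with a blank cell, where 1 strain rests on 1 pool. Because animals were pooled, the p-values reflect variation among pools and not among individual mice.

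Interferons are secreted proteins by which cells warn one another of infection. Type I interferons bind a receptor made of Ifnar1 and Ifnar2, and interferon gamma binds Ifngr1 and Ifngr2. The receptors act through Janus kinases, which phosphorylate STAT proteins. A complex that contains Stat2 and Irf9 then binds interferon-stimulated response elements (ISREs), and STAT dimers bind gamma-activated sites (GAS), next to genes for antiviral enzymes, GTPases, chemokines and feedback inhibitors. In the gut the pathway is active at a low level in the healthy mucosa.

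The binding sequence of the pathway is shown first, because the choice by symbol did not read sequence. It is not independent of that choice, since many of the symbols name genes known as targets of the pathway. Sequence windows from 250 bases before to 50 bases after a transcription start were taken from RefSeq (build GRCm38.p6) for 48 of the 54 genes. The ISRE core searched was GAAANNGAAA on both strands, where overlapping matches count separately, and the GAS core was TTCNNNGAA, which reads the same on both strands. At least 1 window of 17 of the 48 genes (35.4%) held the ISRE core, against 1079 of 27025 genes in the whole table (3.99%). The GAS core was found for 11 of the 48 (22.9%), against 9.55% of all genes. A match is a description of letters and not a site shown to be bound. The stretches below are given on the strand that reads GAAA, with the matched letters in capitals, for 12 of the 17 genes. The other 5 (Ifitm2, Ifitm3, Ifi205, Gbp7 and Stat2) are not printed.
Isg15: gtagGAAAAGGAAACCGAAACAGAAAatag
Oas1c: ccggGAAATGGAAACTGAAAgtcc
Bst2: ccagGAAAATGAAACTGAAAggct
Gbp3: ctggGAAATAGAAACTGAAActgt
Gbp2: cagtGAAAGTGAAActaa
Oas3: aggaGAAAACGAAAgtga
Ifit1: actgGAAAGTGAAActga
Rsad2: ttctGAAAATGAAAgttg
Cxcl10: tttgGAAAGTGAAActta
Socs1: gccgGAAAGAGAAACCGAAAgcgg
Ifih1: aatcGAAACAGAAAccga
Eif2ak2: ccggGAAAACGAAAcaga

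In Isg15 there were 3 overlapping matches, which ran from 78 to 57 bases before the start, and in Oas1c, Bst2, Gbp3 and Socs1 there were 2 each in the stretch shown. The matches of Ifih1 and Eif2ak2 lay after the start, within 42 and 28 bases of it. The upstream sequences of Isg15 and Oasl1 are given in full because the values of these effector genes lay in opposite directions between the strains. Neither difference passed (values below), and a link between the sequences and the directions was not tested. The Isg15 sequence is chr4:156200819-156201068, minus strand, with the ISRE core in capitals, and the Oasl1 sequence is chr5:114922990-114923239, plus strand, whose window holds no match to either core.
Isg15: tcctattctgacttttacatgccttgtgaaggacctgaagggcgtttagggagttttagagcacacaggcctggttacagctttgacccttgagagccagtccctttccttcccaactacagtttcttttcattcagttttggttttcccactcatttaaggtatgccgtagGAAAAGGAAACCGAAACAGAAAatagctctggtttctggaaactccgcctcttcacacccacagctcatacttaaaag
Oasl1: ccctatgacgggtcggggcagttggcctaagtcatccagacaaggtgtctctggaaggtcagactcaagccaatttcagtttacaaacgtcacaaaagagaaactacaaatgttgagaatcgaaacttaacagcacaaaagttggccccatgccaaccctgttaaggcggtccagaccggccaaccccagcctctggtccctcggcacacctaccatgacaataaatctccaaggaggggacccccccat

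The arrays carried between 16320 and 16954 values each, and over the 13475 probes with a value on all 4 arrays the median of each was 12.82. Wild-type pool 1 stood apart more often than the others, lying more than 1 log2 from each other array while those lay within 0.5 of one another on 80 probes, against 13 to 22 for the other pools. On 74 of those 80 probes wild-type pool 1 lay below the others. Among the interferon response probes it stood apart on 1, Irf5, where it lay above them. Stomach markers such as Atp4a, Gkn1 and Tff2 had values on all arrays. Markers of pancreas, liver and skeletal muscle differed between the strains. Of the compared pancreatic markers 7 of 7 passed with higher values in the congenic pools, and of the liver markers 1 of 4, Alb, against 0.289% of all probes. Of the skeletal muscle markers 3 of 5 passed with lower values, against 0.186%. The liver markers Ahsg and Fgg differed by 1.22 ± 0.16 and 1.28 ± 0.22, and Ttr by 0.050 ± 0.077. The source of these transcripts was not tested. Of 21 markers of leukocytes 8 were compared, 3 with a positive and 5 with a negative difference, and 0 passed in limma. An unadjusted p under 0.05 was reached by 1 of 8, against 15.8% of all probes: Cd2 (-0.65 ± 0.25, lower in both congenic pools). Nkg7, the other compared marker of T and natural killer cells, differed by 0.43 ± 0.23 and overlapped. Cd3d, Cd3e, Cd3g, Klrd1 and Cd79a had values on congenic arrays only, and Flt3, Siglech and Adgre1 on wild-type arrays only. The mean level over the 8 compared leukocyte markers was 13.42 in both congenic pools and 13.38 and 13.54 in the wild-type pools. Ptprc, Ms4a1, Cd79b, Gzma and Xcr1, which define leukocyte classes, had no value on any array. In whole stomach, fewer cells of a type and less RNA per cell cannot be told apart.

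No interferon response probe passed the comparison between the strains. At an adjusted p of 0.05 in limma, 0 of 44 passed, where 0.475% of all 13475 probes did (0.289% with the congenic pools higher, 0.186% with them lower). The lowest adjusted p among the 44 was 0.1773. At an adjusted p of 0.1 the count was also 0, against 0.816% of all probes. An unadjusted p under 0.05 was reached by 4 of 44 (9.09%), against 15.8% of all probes: Jak1 and Isg15 were higher in the congenic pools, as 7.12% of all probes were at that p, and Oasl1 and Ifitm1 were lower, as 8.66% were. The values of the strains did not overlap for 25 of 44 (56.8%), 13 with the congenic pools above and 12 below, against 49.4% of all probes, 23.4% above and 26.1% below, so non-overlap was nearly as frequent among probes at large. The differences ran from -1.10 to 0.66, with 24 positive and 20 negative. Their median was 0.039, beside -0.0020 for all probes, and their median size was 0.15 in both. For 41 of 44 probes (93.2%) the unadjusted 95% interval of the difference lay within 1 log2 of 0, that is, within a 2-fold change either way, against 88.3% of all probes. The 3 others were Irf5, Jak1 and Oasl2.

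**Figure D1:**
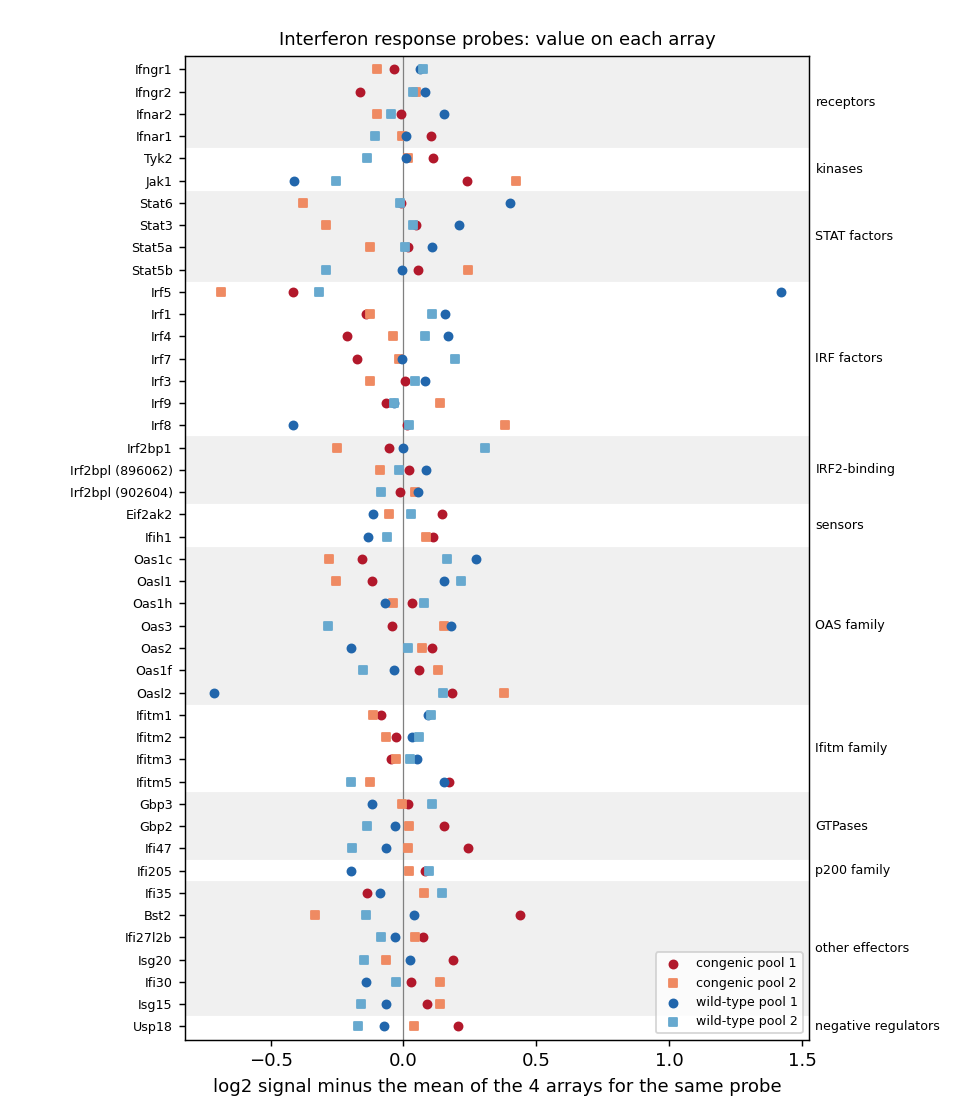
Each row is 1 of the 44 compared interferon response probes, grouped by role, and each symbol is 1 array (red and orange for congenic pools 1 and 2, dark and light blue for wild-type pools 1 and 2). The horizontal axis is the log2 signal minus the probe's mean over the 4 arrays. Most symbols lie within 0.5 of 0, and Irf5 in wild-type pool 1 lies farthest out.

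**Figure D2:**
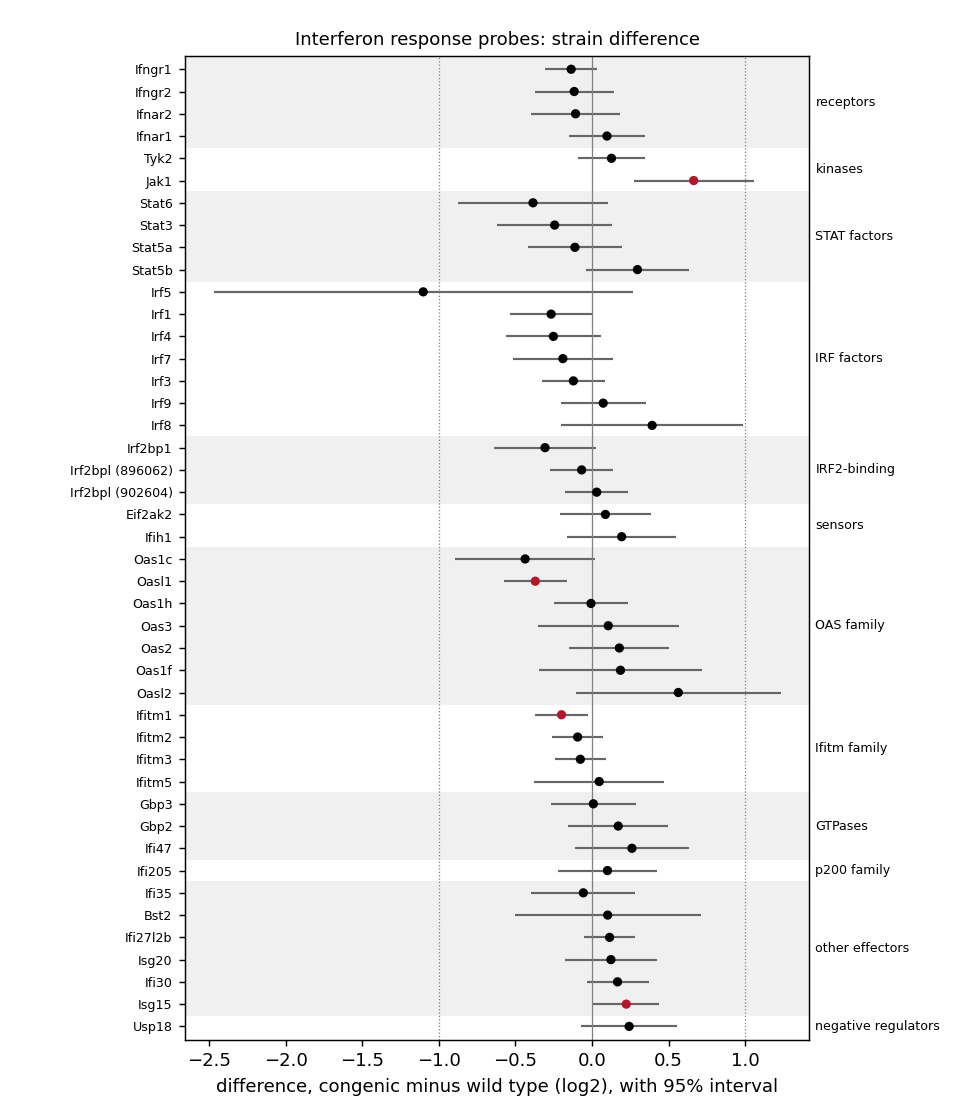
Points show the difference, congenic minus wild type, in log2, for the same 44 probes, and bars show the unadjusted 95% interval from limma. Red points mark the 4 probes with an unadjusted p under 0.05, and dotted lines mark a 2-fold difference either way. Intervals of 41 probes lie between the dotted lines.

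The receptor chains were close in level between strains. Ifngr1, the ligand-binding chain for interferon gamma, read 16.18 and 16.12 in the congenic pools and 16.28 and 16.29 in the wild-type pools. Both congenic values lay below both wild-type values, but by little (-0.14 ± 0.070, 95% interval -0.31 to 0.035). Its partner Ifngr2 and the type I chains Ifnar1 and Ifnar2 differed by between -0.12 and 0.098, and their strains overlapped. Together the 4 receptor probes gave intervals between -0.40 and 0.35.

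The kinases carry the signal from the receptor, with Jak1 serving both receptor types and Tyk2 the type I receptor. Jak1 read 11.79 and 11.97 in the congenic pools against 11.14 and 11.29 in the wild-type pools. Both congenic pools were higher, by 0.66 ± 0.16 or 1.59-fold (95% interval 0.27 to 1.06), more than the gaps of 0.18 and 0.16 between pools of one strain. This was the largest positive difference among the 44, but it did not pass over all probes (limma adjusted p = 0.1827). Jak1 lies on chromosome 4. Tyk2 read 14.74 and 14.65 in the congenic pools and 14.64 and 14.49 in the wild-type pools (0.13 ± 0.090), so the higher wild-type pool lay just under the lower congenic pool.

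Among the STAT factors, Stat5b, which acts mainly downstream of growth hormone and cytokines, read 13.11 and 13.30 in the congenic pools and 13.05 and 12.77 in the wild-type pools (0.30 ± 0.14, limma adjusted p = 0.3604). The congenic values lay above the wild-type values, by a margin smaller than the gap between the pools of one strain. Stat6, the factor of interleukin-4 signalling, read 12.17 and 11.81 in the congenic pools and 12.58 and 12.17 in the wild-type pools (-0.39 ± 0.20), and the strains overlapped. With each pool left out in turn, the Stat6 difference lay between -0.59 and -0.18, and like Irf5 and Oasl2 it reached an unadjusted p under 0.05 in limma with the replicate block and without wild-type pool 2. Stat3 (-0.24 ± 0.15) and Stat5a (-0.11 ± 0.13) also overlapped between strains. Stat2, a component of the complex that binds the ISRE, had a value on 1 array per strain, 10.68 in congenic pool 2 and 10.91 in wild-type pool 1, and was not compared.

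The interferon regulatory factors (IRFs) are transcription factors that induce interferons or act on their target genes. Of 7 compared, 5 had both congenic values below both wild-type values (Irf1, Irf3, Irf4, Irf5 and Irf7), where 26.1% of all probes did, and their differences ran from -1.10 to -0.12. None of the 5 reached an unadjusted p under 0.05 in limma, but Irf1 did without the variance trend, and Irf5 did with the replicate number as a block and without wild-type pool 2. Irf1, itself induced by interferon gamma, read 12.33 and 12.35 in the congenic pools and 12.63 and 12.58 in the wild-type pools (-0.27 ± 0.11, limma adjusted p = 0.3181). The congenic pools were almost identical and lay below the wild-type pools.

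Irf5, which acts downstream of toll-like receptors in myeloid cells, read 9.87 and 9.60 in the congenic pools and 11.70 and 9.97 in the wild-type pools. Wild-type pool 1 alone was high, 1.74 above the other wild-type pool, and the difference of -1.10 ± 0.56 (limma adjusted p = 0.3943) was the largest in size among the 44. Without wild-type pool 1 it was -0.23, and without wild-type pool 2 it was -1.97 (limma adjusted p = 0.05923). Irf8, a factor of macrophage and dendritic cell development, read 10.98 and 11.35 in the congenic pools and 10.55 and 10.99 in the wild-type pools (0.39 ± 0.24), and the strains overlapped. Irf3, which induces type I interferon after viral sensing, read 14.57 and 14.44 in the congenic pools and 14.65 and 14.61 in the wild-type pools (-0.12 ± 0.085). Irf7, which amplifies that induction, differed by -0.19 ± 0.13, Irf4, a lymphocyte factor, by -0.25 ± 0.13, and Irf9 by 0.073 ± 0.11.

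The symbol search also took the IRF2-binding proteins Irf2bp1 and Irf2bpl, transcriptional cofactors that are not themselves IRFs. Irf2bp1 differed by -0.31 ± 0.14. The probes of Irf2bpl, which were 2, differed in sign: -0.067 ± 0.085 for probe 896062 and 0.031 ± 0.084 for probe 902604. Probe 902604 read 14.86 and 14.92 in the congenic pools and 14.93 and 14.79 in the wild-type pools, so neither strain stood above the other.

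Sensors of viral nucleic acid were represented by Ifih1, which recognises long double-stranded RNA, and Eif2ak2, the kinase PKR that stops translation when it binds such RNA. Eif2ak2 was the only one of the 68 matching probes on chromosome 17, the chromosome named in the congenic strain. It read 13.08 and 12.88 in the congenic pools and 12.82 and 12.96 in the wild-type pools. The strains overlapped, and the difference of 0.088 ± 0.12 had a 95% interval of -0.21 to 0.38. Ifih1 read 11.69 and 11.66 in the congenic pools against 11.44 and 11.51 in the wild-type pools (0.19 ± 0.14), with both congenic values above.

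Active enzymes of the oligoadenylate synthetase family make a short RNA-like messenger that switches on RNA degradation, and the genes of the family lie on chromosome 5. Enzyme activity was not measured here. The 7 members compared went both ways, with differences from -0.44 to 0.56. Oasl1, a translational repressor of Irf7, read 14.86 and 14.73 in the congenic pools and 15.13 and 15.20 in the wild-type pools. Both congenic pools were lower, and the difference of -0.37 ± 0.084 (95% interval -0.57 to -0.17) had the lowest p of all 44, but did not pass (limma adjusted p = 0.1773). With each pool left out in turn its difference lay between -0.44 and -0.30.

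Oasl2, its paralogue, read 13.24 and 13.43 in the congenic pools and 12.34 and 13.20 in the wild-type pools (0.56 ± 0.27, limma adjusted p = 0.3783). Wild-type pool 1 was low on this probe, and without that pool the difference was 0.13, while without wild-type pool 2 it was 1.00 (limma adjusted p = 0.05219). Oas1c read 10.77 and 10.64 in the congenic pools and 11.20 and 11.08 in the wild-type pools (-0.44 ± 0.19), with both congenic values below. For Oas2 (0.18 ± 0.13) and Oas1f (0.19 ± 0.22) the congenic pools lay above the wild-type pools, and for Oas3 (0.11 ± 0.19) and Oas1h (-0.0063 ± 0.097) the strains overlapped. The Oas1 genes are close copies of one another, so their probes may share signal and their values are uncertain.

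The Ifitm proteins sit in membranes and block the entry of viruses. The probes of Ifitm1, Ifitm2 and Ifitm3 had standard errors of 0.067 to 0.071, against a median of 0.13 over the 44. Ifitm1 read 15.12 and 15.09 in the congenic pools and 15.30 and 15.31 in the wild-type pools. Pools of one strain lay within 0.030 and 0.011 of each other, and the difference was -0.20 ± 0.071, or 1.15-fold lower (limma adjusted p = 0.2776). Ifitm3 read 16.71 and 16.73 in the congenic pools and 16.81 and 16.79 in the wild-type pools (-0.076 ± 0.067). Ifitm2 gave -0.093 ± 0.068, so that in all 3 of these neighbouring genes of chromosome 7 the congenic pools lay below the wild-type pools, as for 26.1% of all probes, although Ifitm2 and Ifitm3 had unadjusted p-values of 0.2186 and 0.304 in limma. These 3 are similar in sequence and their probes may share signal. Ifitm5, known for its role in bone, differed by 0.047 ± 0.17 and overlapped.

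Interferon-inducible GTPases attack the vacuoles of intracellular parasites and bacteria. Gbp3, a guanylate-binding protein, read 13.30 and 13.27 in the congenic pools and 13.16 and 13.39 in the wild-type pools (0.0093 ± 0.11), with the congenic values between the wild-type values. Gbp2 read 12.17 and 12.03 in the congenic pools against 11.98 and 11.88 in the wild-type pools (0.17 ± 0.13), and Ifi47, of the immunity-related GTPase family, read 12.04 and 11.82 against 11.73 and 11.60 (0.26 ± 0.15). In both the congenic values lay above. Ifi205, of the chromosome 1 cluster of nuclear DNA-binding proteins, read 12.86 and 12.80 in the congenic pools and 12.58 and 12.87 in the wild-type pools, which overlapped.

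Isg15, a ubiquitin-like protein that is attached to other proteins and is among the strongest interferon-induced genes, read 13.92 and 13.96 in the congenic pools and 13.76 and 13.67 in the wild-type pools. Both congenic values were above both wild-type values, by 0.22 ± 0.088 or 1.17-fold (95% interval 0.0086 to 0.44, limma adjusted p = 0.3048). Usp18, which removes Isg15 from its targets and blunts receptor signalling, read 12.47 and 12.30 in the congenic pools and 12.19 and 12.10 in the wild-type pools (0.24 ± 0.13, limma adjusted p = 0.4101). Its congenic values also lay above, and its interval ran from -0.071 to 0.56.

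Ifi30, a thiol reductase of lysosomes that prepares antigens, read 18.07 and 18.18 in the congenic pools and 17.90 and 18.01 in the wild-type pools (0.17 ± 0.083), with the congenic values above. Ifi27l2b did likewise (0.12 ± 0.069). Bst2, which tethers budding viruses to the cell, had the widest gap between congenic pools of all 44, reading 13.49 and 12.72, against 13.09 and 12.91 in the wild-type pools. Its difference of 0.10 ± 0.25 therefore leaves a 95% interval of -0.51 to 0.71. Isg20, an RNA exonuclease (0.12 ± 0.12), and Ifi35 (-0.056 ± 0.14) overlapped between strains.

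Blank cells kept 11 of the 55 members out of the comparison on all arrays. Of the 7 with a single blank, the blank fell in wild-type pool 2 for Rsad2, Cxcl9, Ifit1 and Oas1b, in wild-type pool 1 for Cxcl10 and Gbp7, and in congenic pool 2 for Socs1. Over all 1826 probes with 1 blank, the wild-type pools held 38.8% (pool 1) and 27.3% (pool 2) of the blanks, so a blank in a wild-type pool was the more frequent case among probes at large. Cxcl9, a chemokine induced by interferon gamma, read 10.47 and 9.94 in the congenic pools and 9.54 in wild-type pool 1. Cxcl10, which draws the same T cells, read 9.83 and 9.72 in the congenic pools and 9.39 in wild-type pool 2.

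In a limma fit that allowed 1 blank, 1 strain rests on a single pool that is assumed to vary like the pools of the other strain. There Cxcl9 differed by 0.66 ± 0.40 and Cxcl10 by 0.39 ± 0.39. In the same fit Ifit1, which binds foreign RNA caps and is among the genes most induced by type I interferon, differed by -0.024 ± 0.23, and Rsad2, the antiviral enzyme viperin, by 0.11 ± 0.27. Ifit1 read 11.38 and 11.66 in the congenic pools and 11.55 in wild-type pool 1. Rsad2 read 10.75 and 10.71 in the congenic pools and 10.62 in wild-type pool 1. Oas1b differed by 0.40 ± 0.31, Socs1, the inhibitor of Janus kinases, by 0.049 ± 0.25 and Gbp7 by 0.031 ± 0.36.

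The 4 members with a value on exactly 2 arrays, Stat2, Mx2, Ifi209 and Oas1e, read between 8.61 and 10.91. Mx2, an antiviral GTPase, read 10.22 and 8.61 in the wild-type pools and was blank in the congenic pools. Ifi209 read 8.70 and 9.25 in the wild-type pools and Oas1e 9.49 and 10.09 in the congenic pools, each blank in the other strain. Just outside the limit of 2 arrays, the 5 probes with a value on 1 array (Jak2, Oas1d, Ifi204, Ifitm10 and a second Ifitm1 probe) read between 9.37 and 10.56. A further 8 matching probes, for Ifit2, Stat4, Gbp2b, Gbp8, Gbp9, Oas1g and Ifi202b, with 2 probes for Gbp9, had no value on any array. A blank was not read as an absent transcript, because the rule behind blank cells is not given in the sources used here.

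Split by the ISRE core in a start-site window, the 11 compared probes with a match had a median difference of 0.10, with 8 positive and 3 negative. The 30 without a match had a median of -0.062, with 13 positive and 17 negative. Among all compared probes with 1 gene symbol, the median was -0.0040 for the 229 with the core and -0.022 for the 6203 without it. Among the listed pathway genes described below, the medians stood in the opposite order. The 11 with the core had a median of -0.057, with 5 positive and 6 negative. The 40 without it had a median of -0.032, with 18 positive and 22 negative. These medians are a description: the ranges of the members overlapped (-0.44 to 0.22 with the core, -1.10 to 0.66 without), and an unadjusted p under 0.05 was reached by 1 of 11 and 3 of 30, against 14.4% and 15.8% of all probes with and without the core. The matched members ranged from Isg15 at the top to Oas1c at the bottom, whose stretches both hold overlapping copies of the core.

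**Figure D3:**
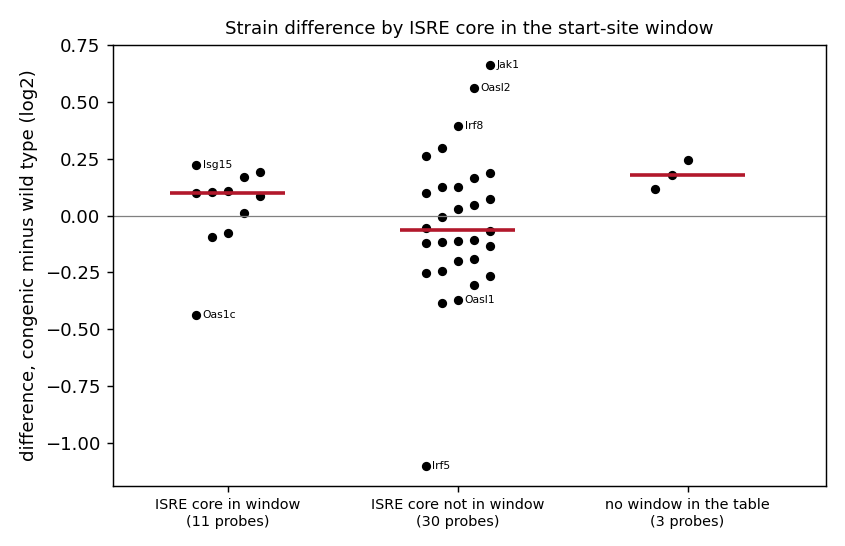
Each point is 1 compared interferon response probe, placed by whether a start-site window of its gene holds the ISRE core, does not, or was not in the RefSeq table. The vertical axis is the difference, congenic minus wild type, in log2, and red lines are medians (0.10 with the core and -0.062 without). Points of the first 2 classes cover overlapping ranges.

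A list of other genes of the pathway, outside the symbol rule, held 93 probes, of which 61 were compared. Of these, 1 passed in limma with a lower value in the congenic pools, as 0.186% of all probes did, and 0 passed with a higher value, as 0.289% did. At an unadjusted p under 0.05 there were 11 (18.0%, against 15.8% of all probes), 5 higher and 6 lower. The median difference of the 61 was -0.033. The gene that passed was H2-T23, a chromosome 17 gene for a non-classical antigen-presenting molecule, which read 14.21 and 14.27 in the congenic pools and 14.90 and 14.96 in the wild-type pools (-0.69 ± 0.079, limma adjusted p = 0.03131). With each pool omitted in turn, its limma adjusted p ranged from 0.06458 to 0.211, and it was 0.1037 with the replicate block and 0.1782 without the variance trend.

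Of the interferons themselves, Ifna1 and Ifna2 had values on all arrays and differed by -0.59 ± 0.45 and 0.99 ± 0.42, while Ifnb1 and Ifng had no value on any array. With each pool left out in turn, Ifna1 ranged from -1.17 to -0.0084 and Ifna2 from 0.53 to 1.45. Ifna genes are near-identical copies and their values are uncertain. Ifnl3, a type III interferon of epithelia, differed by 0.055 ± 0.18, and Il10rb, a receptor chain for that class, by 0.13 ± 0.082. None of these 4 passed in limma, and none had an unadjusted p under 0.05.

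The negative regulators of the list had 5 of 12 compared probes at an unadjusted p under 0.05, 2 higher and 3 lower, where 15.8% of all probes reached it (7.12% higher and 8.66% lower), and none passed over all probes in limma. Pias1, an inhibitor of STAT signalling, read 14.51 and 14.96 in the congenic pools and 14.28 and 14.08 in the wild-type pools (0.56 ± 0.16, limma adjusted p = 0.2247). Its congenic values lay above, though the congenic pools differed from each other by nearly as much. Socs3, an inhibitor of Stat3 signalling, read 15.35 and 15.34 against 15.09 and 15.17 (0.21 ± 0.074). The phosphatase Ptpn1, which acts on Janus kinases, differed by -0.32 ± 0.096, Cish by -0.34 ± 0.11 and Ptpn11 by -0.24 ± 0.091.

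Among the antigen processing genes of the list, Tap1, a peptide transporter encoded on chromosome 17, read 11.18 and 10.80 in the congenic pools and 11.40 and 11.74 in the wild-type pools (-0.58 ± 0.22, limma adjusted p = 0.2913). The congenic values lay below. H2-K1, which presents peptides to T cells, differed by 0.27 ± 0.076 and Tapbp by -0.20 ± 0.11, and neither passed. Probes of the similar H2 genes can read one another's transcripts, and sequence differences of the CAST strain under the probes were not tested.

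The remaining roles of the list, 22 compared probes of other induced effectors, 9 of sensors and adaptors and 6 of immunity-related GTPases, held none that passed in limma. An unadjusted p under 0.05 was reached by 3 of the 22 (Ccl5, Trim34a and Nmi), 0 of the 9 and 0 of the 6, against 15.8% of all probes. Ccl5, a chemokine of T cells, read 11.00 and 10.70 in the congenic pools and 11.46 in both wild-type pools (-0.60 ± 0.19, limma adjusted p = 0.2418). Trim34a (0.79 ± 0.31), Nmi (0.19 ± 0.077) and Trim30a (0.33 ± 0.14) lay higher in both congenic pools. For Trim34a the congenic pools read 11.22 and 10.47, so they differed from each other by nearly as much as the strains. A second probe of Trim34a had a value in wild-type pool 2 only. The sensors and adaptors with the smallest p were Ikbke, a kinase that activates Irf3 (-0.37 ± 0.16), Tlr3, the endosomal receptor for double-stranded RNA (0.47 ± 0.25), Trim56 (0.14 ± 0.098) and Adar, an RNA-editing enzyme (-0.19 ± 0.15). Of the immunity-related GTPases, Tgtp1 differed by -0.39 ± 0.18, Irgm2 by -0.26 ± 0.20, Irgm1 by 0.11 ± 0.11 and Igtp by -0.057 ± 0.11.

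**Figure D4:**
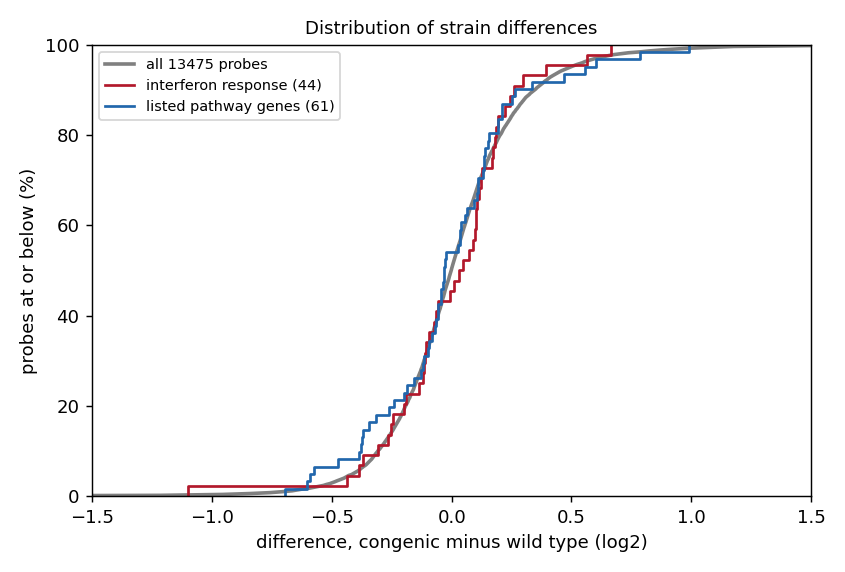
Curves give the share of probes (vertical axis, percent) with a difference, congenic minus wild type in log2, at or below the value on the horizontal axis, for the 44 interferon response probes (red), the 61 listed pathway probes (blue) and all 13475 probes (grey). The medians are 0.039, -0.033 and -0.0020, and the red and blue curves follow the grey curve over most of the range.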

How the data were processed

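Stomach RNA was extracted with TRIzol, and 1 microgram was labelled with digoxigenin for single-colour chemiluminescent arrays, per the labels' protocols. The authors deposited a log2 signal for each probe on each array, with some cells blank. How they normalized the values, which log base they used and when they left a cell blank is not given in the sources used here. The base is inferred from the range, and every fold rests on it. Of 33012 probes, 14411 had 1 gene symbol in the platform's annotation, 247 several and 18354 none.

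Strains were compared with limma 3.58.1 (R 4.3.3) on the 13475 probes that had no blank. A linear model per probe was followed by eBayes, whose prior variance followed the signal level (2 residual and 3.97 prior degrees of freedom). Tests were two-sided, p-values were adjusted by Benjamini-Hochberg over all these probes, and the threshold was 0.05. No further normalization, pseudocount or filter was used, and the number of arrays limits precision. In a simulation of this comparison with 13475 probes, of which 100 were shifted by 1 log2 and 100 by 2 log2, the model called 51% of the former and 87% of the latter, and 12 of its 150 calls were unshifted probes. The simulated noise was normal and followed the variance model of the same fit, so these shares may flatter it. No shift under 1 log2 was tried, so recovery of differences as small as those of most members is not known.

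The interferon response probes and the gene lists were chosen with earlier results of these data known. Values on every array are given for members with an unadjusted p under 0.05, the 6 largest differences, the highest mean level in each role, and, chosen after their values were seen, others of interest (Stat2, Irf1, Ifih1, Gbp2, Ifi47, Bst2 and the members with blanks). Of the members with blanks, Oas1b, Socs1 and Gbp7 are given by their difference only. Of the pathway list, genes that passed and up to 4 per role by p were named, with Ptpn11, Ifnb1 and Ifng added later. As alternatives, the fit was repeated with the replicate number as a block, with quantile normalization, median centring, other variance models, a filter on dim probes, 1 blank allowed, and each pool left out. The check of pairing by replicate number gave a correlation of -0.064 between the deviations of same-numbered pools over 13475 probes, so the numbers were not taken as pairs. Figures were drawn with matplotlib 3.10.9.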

Additional observations from a re-analysis of the deposited data

How the results depend on the processing

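In limma, 0 interferon response probes passed under all 11 alternatives and at an adjusted p of 0.1, and the count at an unadjusted p under 0.05 stayed between 3 and 5 in each. Jak1 and Oasl1 were among them except that Jak1, being dim, was not tested with dim probes left out. The other members among them changed with the setting, and not all are named above. Oas1c, for instance, was among them with quantile normalization and without the variance trend. The lowest adjusted p among the members lay between 0.05219 and 0.4656 over the alternatives, with 0.05219 reached without wild-type pool 2. The median difference (0.039) was 0.020 among probes at or above the median level and lay between -0.0065 and 0.024 with 1 pool left out, turning negative without congenic pool 1. Over all probes the count that passed (64) was 35 with the replicate number as a block, 20 without the variance trend and between 15 and 168 with 1 pool left out. The block moved no member past the threshold. The pathway list's count (1, H2-T23) was 0 with the replicate block (adjusted p = 0.1037), 0 without the variance trend (adjusted p = 0.1782) and 0 without each pool in turn. Single differences were recomputed for the 44 compared members and 25 named pathway genes. With 1 pool left out, 13 of these 69 changed sign: Gbp3 ranged from -0.10 to 0.12, Ifi205 from -0.044 to 0.25, Eif2ak2 from -0.011 to 0.19, Irf2bpl (probe 902604) from -0.038 to 0.10, Bst2 from -0.28 to 0.49, Ifi35 from -0.17 to 0.059, Ifitm5 from -0.13 to 0.22, Irf9 from -0.028 to 0.18, Isg20 from -0.0019 to 0.25, Oas1h from -0.078 to 0.066, Oas3 from -0.13 to 0.34, Ifnl3 from -0.18 to 0.29 and Igtp from -0.14 to 0.030. None of the 69 changed sign under another setting. The cause of these changes was not tested. Signal over background is unknown here.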
